A study of Homo sapiens with 18 samples.

Results

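The blood transcription factor gene TAL1, its chromosomal neighbours PDZK1IP1, STIL and CMPK1, and 6 related genes of blood-cell transcription (LYL1, LMO2, GATA1, GATA2, RUNX1 and CBFA2T3) were followed through HAP1 cells that lacked the cohesin release factor WAPL, the cohesin loader subunit SCC4, or both. These 10 of the 20329 genes counted were picked by name, TAL1 with its levels in these samples already known, the 3 neighbours for their position and the other 6 for their kinship with TAL1. The values of TAL1 are therefore a description, with no test. HAP1 is a near-haploid human line derived from a chronic myeloid leukaemia line; it grows attached to the dish and has impaired p53 function, in edited and unedited cells alike. Polyadenylated RNA was sequenced from 18 samples in 6 groups of 3. Set A held unedited cells (control A), *ΔWAPL* clone 3.3, *ΔSCC4* and *ΔWAPL*/*ΔSCC4* cells, and set B held unedited cells (control B) and *ΔWAPL* clone 1.14. In the *ΔWAPL* lines a Blasticidine cassette, and in the *ΔSCC4* line a Puromycin cassette, had been inserted at the target gene with CRISPR, and *ΔWAPL*/*ΔSCC4* cells, labelled with clone 3.3, were made by removing SCC4 from *ΔWAPL* cells. Each edited group is 1 line, so the effect of a genotype and that of its line cannot be told apart, apart from the comparison of the 2 *ΔWAPL* clones. The labels do not say that replicates came from separate cultures, so the p-values measure only the spread between these samples.

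Cohesin is a ring that extrudes DNA into loops. SCC4, the product of MAU2, helps load it onto chromatin, and WAPL releases it. TAL1 is a basic helix-loop-helix factor that pairs with E proteins and, through the bridging proteins LMO2 and LDB1, meets GATA factors on DNA; this complex is needed to form blood cells, and TAL1 is switched on wrongly in many T-cell leukaemias, at times by a deletion that joins it to its neighbour STIL. Many blood genes, TAL1 among them, are controlled by distant enhancers.

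Between 10007646 and 20711127 reads per sample fell on genes, with a median of 16177867.5. WAPL was at 78.1 to 121 CPM (read counts scaled for library size) in control A and 104 to 131 CPM in control B, against 40.3 to 50.2 CPM in clone 3.3, 38.0 to 43.4 CPM in clone 1.14 and 41.0 to 48.5 CPM in *ΔWAPL*/*ΔSCC4* cells. MAU2 was at 61.3 to 72.7 CPM in control A and at 0.509 to 1.04 CPM in the 6 samples labelled as lacking SCC4, so the targeted genes followed the labels. Genes that define blood cells were near absent: PTPRC, which encodes CD45, and CD34 had at most 2 reads in any sample, and 11 of 12 blood surface and granule markers stayed under 1 CPM throughout. VIM, a mesenchymal gene, was at 237 to 654 CPM. The summed level of 7 mesenchymal or epithelial markers differed between groups, with 704 to 868 CPM in control A, 613 to 665 CPM in clone 3.3, 755 to 809 CPM in *ΔSCC4*, 450 to 513 CPM in *ΔWAPL*/*ΔSCC4*, 671 to 747 CPM in control B and 544 to 572 CPM in clone 1.14; their part in the results was not tested. Among them KRT8, a keratin, was called lower in both clones and in *ΔSCC4* and higher in *ΔWAPL*/*ΔSCC4* (7.15 to 9.64 CPM in control A and 44.8 to 51.5 CPM there), EPCAM was lower in both clones (it passed the filter on low counts only through the controls), VIM lower in clone 1.14 and *ΔWAPL*/*ΔSCC4*, and CDH2 higher in *ΔSCC4* and lower in *ΔWAPL*/*ΔSCC4* (calls lost in 3 and 5 of 6 fits without a library, adjusted p up to 0.0958 and 0.246).

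TAL1 (ENSG00000162367) lies on the minus strand of chromosome 1 at 47681962 to 47697897 (GRCh37), between PDZK1IP1, whose body ends 25.2 kb before it, and STIL, whose body begins 17.9 kb after it. CMPK1 begins 18.9 kb beyond STIL, and the 4 genes together span 211.3 kb. The DNA just before a RefSeq start of TAL1 and of CMPK1 is given, both windows that held the letters GATAA, described below. The windows of STIL and PDZK1IP1, the genes on either side of TAL1, held none. Beside these stands a short stretch, also with GATAA, before the RefSeq start of LYL1, the closest relative of TAL1. For TAL1 and LYL1 these starts differ from the ends of the GENCODE gene bodies. The LYL1 stretch lies inside its GENCODE body (chr19:13209847-13213975). Which start the cells used was not measured. Capitals mark GATAA, the core letters that GATA factors such as GATA2 recognise, on either strand (TTATC is GATAA on the other strand). The sequences are from RefSeq (GRCh38.p14) and each matched GRCh37 once, at the positions given:
TAL1, 250 bases before the start, chr1:47698008-47698257, minus strand: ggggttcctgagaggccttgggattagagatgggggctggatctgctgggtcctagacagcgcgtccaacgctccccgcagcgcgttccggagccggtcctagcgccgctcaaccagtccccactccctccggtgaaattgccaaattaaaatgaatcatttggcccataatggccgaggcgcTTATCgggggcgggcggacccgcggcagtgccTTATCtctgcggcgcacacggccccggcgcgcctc
CMPK1, 250 bases before the start, chr1:47799212-47799461, plus strand: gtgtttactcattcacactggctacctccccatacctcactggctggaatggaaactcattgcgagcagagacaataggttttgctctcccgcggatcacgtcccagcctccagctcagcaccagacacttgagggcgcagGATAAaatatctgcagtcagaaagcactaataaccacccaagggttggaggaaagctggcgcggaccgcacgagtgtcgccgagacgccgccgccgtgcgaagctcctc
LYL1, 29 bases, chr19:13213683-13213711, minus strand: cagccaggctccTTATCaggcgcggccag

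RefSeq windows of 250 bases were found for 9 of the 10 genes (11 windows, with 2 each for TAL1 and GATA2) and not for LMO2. GATAA was in 3 of the 11 windows, against 20.4% of the 35116 windows of all genes. In the first TAL1 window it stood 67 and 35 bases before the start, in CMPK1 109 bases and in LYL1 27 bases before it. CANNTG, the E-box that helix-loop-helix factors bind, was in 5 of the 11 windows, against 61.8% of all windows, and TGTGGT, the letters RUNX1 recognises, in 1, the second TAL1 window, against 3855 of the 35116. Both strands were searched, and the motifs do not overlap each other in the sequences printed. These matches describe letters and say nothing of whether a factor is bound.

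TAL1 was abundant in 4 of the 6 groups and almost lost in the other two. It was at 79.1, 71.4 and 68.2 CPM in control A, at 80.5, 69.3 and 68.1 CPM in clone 3.3 and at 83.2, 80.4 and 84.0 CPM in *ΔWAPL*/*ΔSCC4* cells. It was at 54.0, 56.8 and 52.3 CPM in control B. In *ΔSCC4* cells it was at 4.68, 4.68 and 3.8 CPM (72, 46 and 55 reads) and in clone 1.14 at 2.38, 2.91 and 2.84 CPM (45, 49 and 47 reads). No sample of these low groups came near any sample of the other 4 groups. As in all bulk samples, fewer cells with TAL1 RNA and less of it per cell cannot be told apart. The mean of control A was 16.6 times that of *ΔSCC4*, with ratios of single samples from 14.6 to 20.8, and the mean of control B was 20.1 times that of clone 1.14, with ratios from 18 to 23.8.

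From high to low, the groups stood in the order *ΔWAPL*/*ΔSCC4* (82.5 ± 1.92 CPM, SD, n = 3), control A (72.9 ± 5.62 CPM), clone 3.3 (72.6 ± 6.81 CPM), control B (54.4 ± 2.26 CPM), *ΔSCC4* (4.39 ± 0.509 CPM) and clone 1.14 (2.71 ± 0.283 CPM). Control A and clone 3.3 overlapped almost fully, and the highest sample of clone 3.3 just passed the lowest of *ΔWAPL*/*ΔSCC4*. The other neighbours in this order did not overlap. The *ΔWAPL* clones thus stood far apart: the log2 fold change of TAL1 was -0.03 in clone 3.3 against control A and -4.33 in clone 1.14 against control B, a difference of 4.32. Loss of SCC4 went with a log2 fold change of -4.07 in unedited cells and of 0.18 in clone 3.3 (*ΔWAPL*/*ΔSCC4* against clone 3.3). The double knockout stood 18.8 times above *ΔSCC4* (log2 fold change 4.23), with ratios of single samples from 17.2 to 22.1. The controls themselves differed, by -0.44 on the log2 scale for set B against set A.

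**Figure D1:**
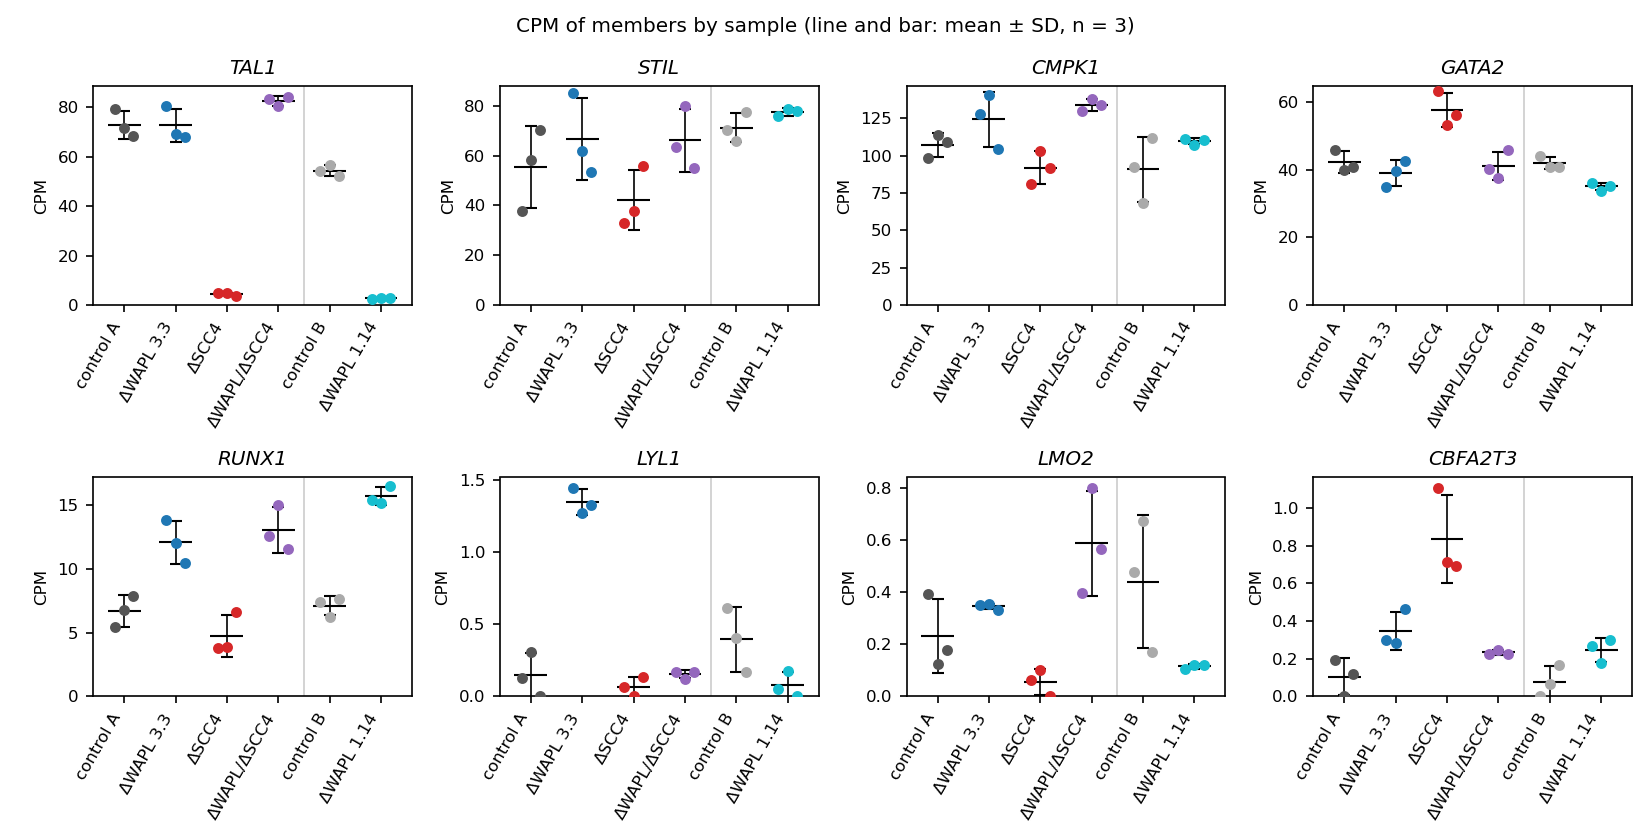
CPM (linear axes that differ between genes and start at 0) of 8 genes in each of the 18 samples; points are samples and the bars give the mean ± SD of 3 samples, with set A left and set B right of the grey line. TAL1 is near 0 in *ΔSCC4* and in *ΔWAPL* clone 1.14 and at 52.3 to 84.0 CPM elsewhere, RUNX1 is higher in the 3 groups that lack WAPL, and LYL1 stands out in clone 3.3.

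Of the 9 genes other than TAL1, 5 were tested in clone 3.3 and edgeR called 2, both higher (RUNX1 and LYL1), where it called 8.07% of all genes (4.17% higher and 3.90% lower). In clone 1.14 it called 2 of 4, RUNX1 higher and GATA2 lower, against 20.1% of all genes (8.70% higher and 11.4% lower), and DESeq2 called 1. In *ΔSCC4* it called 1 of 5 (CBFA2T3, higher), against 9.49% (5.45% higher and 4.03% lower). The labels do not pair samples, but same-numbered *ΔSCC4* and control A samples deviated together. With the replicate number as a block edgeR called 5 of 5, against 46.0% of all genes. In *ΔWAPL*/*ΔSCC4* it called 1 of 4 against control A (RUNX1, higher), against 7.95% (4.65% higher and 3.30% lower), and 1 of 5 against clone 3.3 (LYL1, lower), against 10.6% (6.05% higher and 4.55% lower). Between *ΔWAPL*/*ΔSCC4* and *ΔSCC4* it called all 5 tested genes, with RUNX1, STIL and CMPK1 higher and GATA2 and CBFA2T3 lower, against 27.3% of all genes (13.7% higher and 13.6% lower). The clones differed in 1 of 5 (LYL1), against 2.65% of all genes (1.67% with the higher change in clone 3.3 and 0.985% with the lower). Between the controls 0 of 4 was called, 0 of 4 at an unadjusted p under 0.05 and 0 by DESeq2, against 0.640% of all genes (0.560% higher and 0.0799% lower). LYL1 and CBFA2T3 passed the filter on low counts only through the group in which they were high, so the filter favoured a difference and their counts give no support. PDZK1IP1, LMO2 and GATA1 had too few reads to test in any comparison.

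STIL, which encodes a protein needed to duplicate centrioles, did not follow TAL1. STIL was at 37.8, 58.3 and 70.2 CPM in control A, 85.2, 61.9 and 53.4 CPM in clone 3.3, 32.8, 37.8 and 56.0 CPM in *ΔSCC4* and 63.3, 79.7 and 55.2 CPM in *ΔWAPL*/*ΔSCC4*. In set B it was at 70.3, 65.8 and 77.6 CPM in control B and at 75.9, 78.8 and 77.9 CPM in clone 1.14. All groups of set A overlapped, and in set B the samples lay close together while TAL1 differed there by 20.1 times. In clone 1.14 the log2 fold change of STIL was 0.12 ± 0.07 (SE, edgeR adjusted p = 0.262), and in *ΔSCC4* it was -0.41 ± 0.25 (adjusted p = 0.37). With the replicate block the latter was -0.40 with an adjusted p of 0.00262, and without control A replicate 1 it was -0.61 with 0.0381. Between *ΔWAPL*/*ΔSCC4* and *ΔSCC4*, STIL was higher by 0.64 ± 0.18 (adjusted p = 0.0141), although the samples overlapped and the adjusted p was 0.121 without *ΔSCC4* replicate 2.

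CMPK1, the kinase of pyrimidine monophosphates, lay in a similarly narrow range. It was at 98.1, 113 and 109 CPM in control A, 128, 141 and 105 CPM in clone 3.3, 81.3, 103 and 91.7 CPM in *ΔSCC4*, and 130, 138 and 134 CPM in *ΔWAPL*/*ΔSCC4*. In set B it was at 92.7, 68.2 and 112 CPM in control B and 111, 107 and 110 CPM in clone 1.14. The groups of each comparison with control overlapped except *ΔWAPL*/*ΔSCC4*, whose samples all lay above control A (log2 fold change 0.32 ± 0.11, adjusted p = 0.131). In clone 1.14 the log2 fold change was 0.27 ± 0.16 (adjusted p = 0.26, or 0.0264 without control B replicate 3), against TAL1's -4.33. In *ΔSCC4* it was -0.23 ± 0.13 (adjusted p = 0.342), and with the replicate block -0.24 with an adjusted p of 0.0063. CMPK1 was higher in *ΔWAPL*/*ΔSCC4* than in *ΔSCC4*, by 0.54 ± 0.12 (adjusted p = 0.00378), a ratio of means of 1.46, where TAL1 had 18.8.

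PDZK1IP1, a small membrane protein gene on the other side of TAL1, was close to silent. It had 3 reads in all 18 samples together, and at most 1 in a sample. Per kilobase of exon, TAL1 in control A (12.8 CPM per kb) was above STIL (7.09 CPM per kb) and below CMPK1 (24.1 CPM per kb). In clone 1.14 TAL1 was at 0.475, STIL at 9.91 and CMPK1 at 24.7 CPM per kb, so the order of TAL1 and STIL was the other way round there.

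Most other genes around TAL1, like most genes tested, were not called against control. Of the 30 protein-coding and 20 long noncoding genes annotated within 1 Mb, 29 protein-coding genes were counted, and besides TAL1 16 had enough reads to test (POMGNT1, LURAP1, RAD54L, LRRC41, UQCRH, NSUN4, FAAH, DMBX1, MKNK1, MOB3C, ATPAF1, EFCAB14, STIL, CMPK1, FOXD2 and TRABD2B). In clone 3.3 their log2 fold changes lay between -0.24 and 0.25. There edgeR called 0 of 16, against 8.07% of all genes, with 0 at an unadjusted p under 0.05 and 0 by DESeq2. In *ΔWAPL*/*ΔSCC4* against control A the range was -0.43 to 0.92. EdgeR called 0 of 16 in this comparison, against 7.95% of all genes, with 5 at an unadjusted p under 0.05 and 0 by DESeq2. In clone 1.14, with TAL1 at -4.33, the range was -0.29 to 0.39 and 2 of 16 were called, against 20.1% of all genes, and 0 by DESeq2. MOB3C rose by 0.39 (adjusted p = 0.0384) and UQCRH fell by 0.25 (adjusted p = 0.0495). Each call was lost in 5 of the 6 fits that left out a library, MOB3C in all but that without clone 1.14 replicate 1 (adjusted p up to 0.124) and UQCRH in all but that without control B replicate 3 (up to 0.161). In *ΔSCC4*, 2 of 16 were called, against 9.49% of all genes. TRABD2B, whose start lies 765.2 kb beyond that of TAL1, rose by 1.85 ± 0.36 (adjusted p = 0.00779; 37, 17 and 25 reads against 13, 8 and 5 in control A). RAD54L, a gene of homologous recombination at -985.8 kb from the TAL1 start, fell by 0.61 ± 0.13 (adjusted p = 0.0141), a call lost without control A replicate 2, *ΔSCC4* replicate 2 or *ΔSCC4* replicate 3 (adjusted p 0.0561 to 0.0758). With the replicate block 7 of 16 were called in *ΔSCC4*, 2 up and 5 down, against 46.0% of all genes. Between *ΔWAPL*/*ΔSCC4* and *ΔSCC4*, where TAL1 differed 18.8 times, edgeR called 7 of 16 and DESeq2 5, against 27.3% of all genes by edgeR. CMPK1, STIL, RAD54L and LURAP1 were higher, by 0.46 to 0.64, and LRRC41, POMGNT1 and TRABD2B lower, by -0.44 to -0.94. The calls of CMPK1 and RAD54L held in all 6 fits without a library, and those of the other 5 were lost in 1 (STIL, adjusted p 0.121) to 5 of them (LURAP1, up to 0.106).

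The median log2 fold change of the 16 genes was 0.02 in clone 3.3, -0.05 in clone 1.14, -0.11 in *ΔSCC4* and 0.12 in *ΔWAPL*/*ΔSCC4*, beside medians of -0.0006, 0.0015, -0.0047 and 0.0006 over all genes tested; 3 of these comparisons share control A. Of the other genes within 1 Mb, 12 of 28 stayed under 1 CPM in every sample, 7 of them with no read at all. CYP4X1, at -208.6 kb, was among the weakly read genes and was not tested. It had 9, 8 and 12 reads in *ΔSCC4* against 1, 1 and 2 in control A, while unedited control B had 7, 6 and 6.

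**Figure D2:**
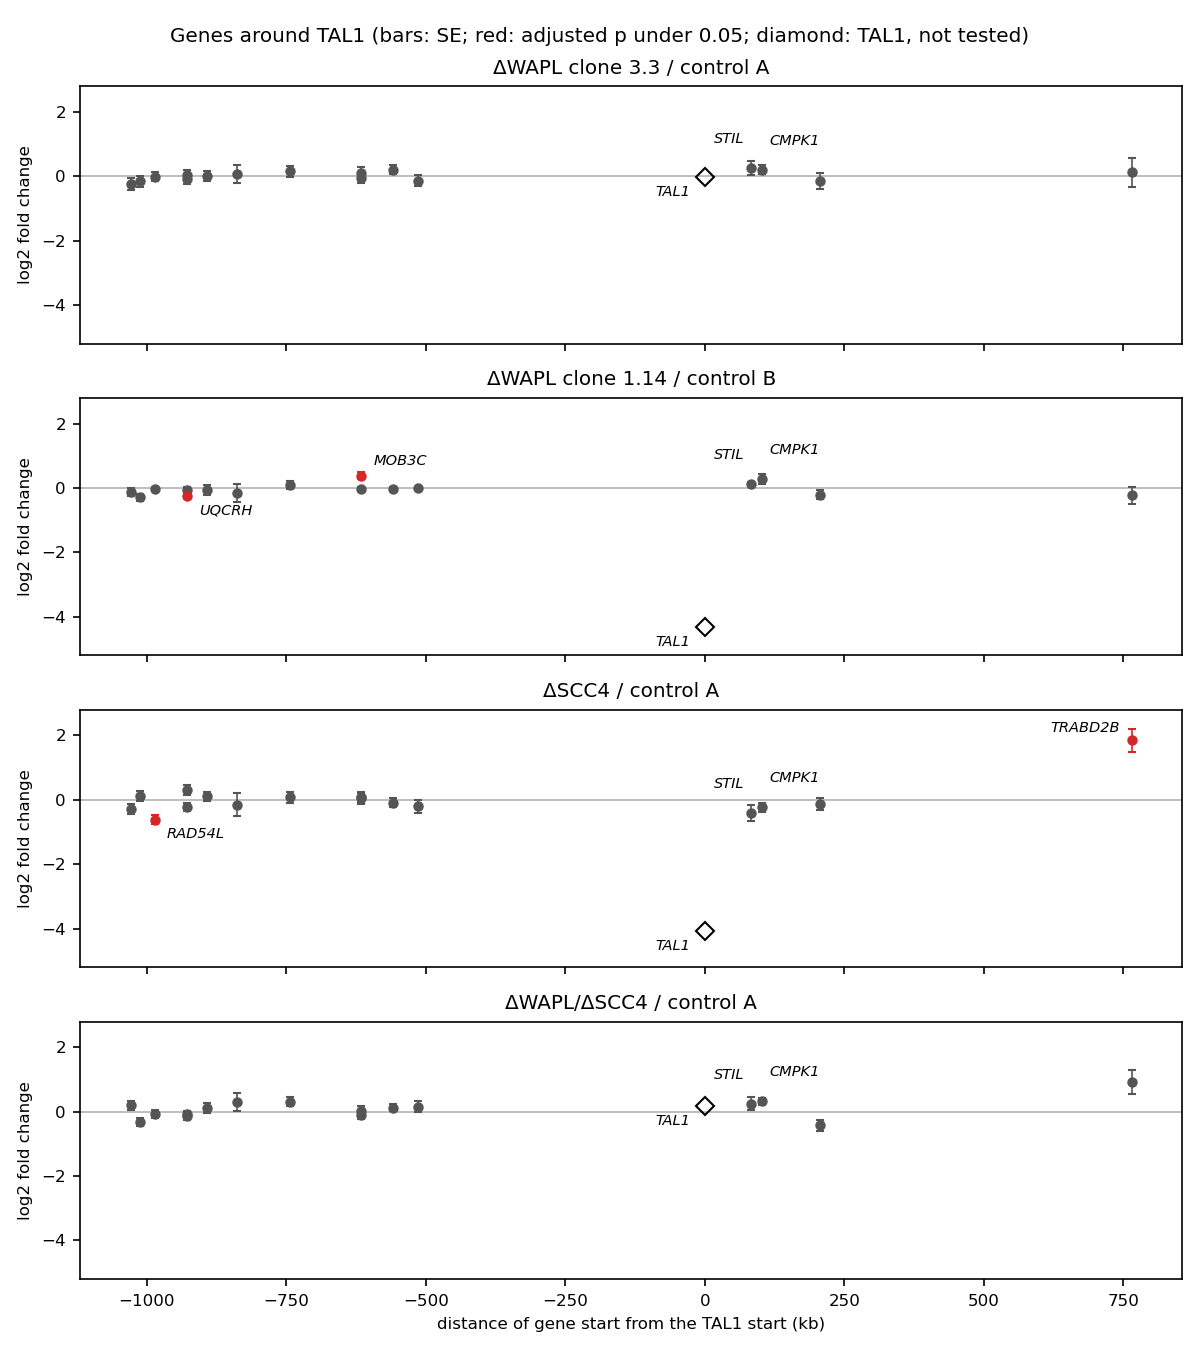
Log2 fold change (vertical axis, 1 panel per comparison) of the tested genes within 1 Mb against the distance of their start from that of TAL1 in kb; bars are standard errors, red points have an edgeR adjusted p under 0.05 and the open diamond is TAL1, shown without a test. In clone 1.14 and *ΔSCC4*, TAL1 stands at -4.33 and -4.07 while STIL and CMPK1 stay between -0.41 and 0.27.

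RUNX1, the DNA-binding subunit of core-binding factor and a master gene of blood stem cells, was higher in each line that lacked WAPL. In set A it was at 5.40, 6.78 and 7.86 CPM in control A, 13.8, 12.02 and 10.4 CPM in clone 3.3, 3.77, 3.87 and 6.63 CPM in *ΔSCC4* and 12.6, 15.0 and 11.5 CPM in *ΔWAPL*/*ΔSCC4*. In set B it was at 7.38, 6.25 and 7.65 CPM in control B and 15.4, 15.1 and 16.5 CPM in clone 1.14. Every sample without WAPL lay above every sample with it. The log2 fold change was 0.84 ± 0.18 in clone 3.3 (adjusted p = 0.00707), 1.13 ± 0.10 in clone 1.14 (adjusted p = 0.000261) and 0.96 ± 0.17 in *ΔWAPL*/*ΔSCC4* against control A (adjusted p = 0.0051). All 3 were called under each of the 12 alternative fits of their comparison. *ΔWAPL*/*ΔSCC4* cells carry the label of clone 3.3 and share its controls, so the 3 comparisons are not independent. All 3 lines also had the Blasticidine cassette, so its effect and that of WAPL loss cannot be told apart. The clones did not differ beyond their spread (difference -0.28 ± 0.21, adjusted p = 0.741), while TAL1 differed between them by 4.32. In *ΔSCC4* alone RUNX1 was at -0.49 ± 0.25 (adjusted p = 0.268); with the replicate block the adjusted p was 0.0183, and without *ΔSCC4* replicate 3 the change was -0.82 with 0.0391. The double knockout exceeded *ΔSCC4* by 1.43 ± 0.20 (adjusted p = 5.16e-05) and differed from clone 3.3 by 0.10 ± 0.15 (adjusted p = 0.744). FKSG68, a gene inside RUNX1 on the same strand, had at most 3 reads in a sample.

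GATA2, the GATA factor of blood stem and progenitor cells, was read at 33.9 to 63.4 CPM in all samples. It was at 46.0, 40.0 and 40.9 CPM in control A, 34.9, 39.7 and 42.6 CPM in clone 3.3, 63.4, 53.4 and 56.4 CPM in *ΔSCC4* and 40.3, 37.5 and 45.8 CPM in *ΔWAPL*/*ΔSCC4*. In set B it was at 44.2, 40.9 and 41.0 CPM in control B and 36.1, 33.9 and 35.2 CPM in clone 1.14. All *ΔSCC4* samples lay above all other samples, and clone 1.14 lay below its controls. In *ΔSCC4* the log2 fold change was 0.44 ± 0.14 (adjusted p = 0.0798); it was 0.44 with an adjusted p of 0.000263 with the replicate block and 0.51 with 0.0328 without control A replicate 1. GATA2 was lower in *ΔWAPL*/*ΔSCC4* than in *ΔSCC4*, by -0.49 ± 0.13 (adjusted p = 0.0122, or 0.0755 without *ΔWAPL*/*ΔSCC4* replicate 1). In clone 1.14 it fell by 0.27 ± 0.06 on the log2 scale (adjusted p = 0.0261). That call was lost in 6 of 12 alternative fits, among them DESeq2 (adjusted p = 0.0709), and without control B replicate 1 or any clone 1.14 replicate (adjusted p 0.0686 to 0.11). The groups low in TAL1 thus stood on opposite sides of their controls for GATA2. GATA1, the erythroid member of the family, had 2 reads in all 18 samples together.

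LYL1, a helix-loop-helix factor that can stand in for TAL1 in blood progenitors, was read at low level, mainly in clone 3.3. It had 29, 18 and 20 reads (1.44, 1.27 and 1.33 CPM) in clone 3.3, against 2, 5 and 0 reads in control A, 1, 0 and 2 in *ΔSCC4* and 3, 2 and 3 in *ΔWAPL*/*ΔSCC4*. In set B it had 9, 6 and 3 reads in control B and 1, 3 and 0 in clone 1.14. A count of 0 allows a level of up to 0.176 to 0.192 CPM in the libraries of control A and 0.161 to 0.184 CPM in those of clone 1.14 (3 reads; counting error only). Clone 3.3 stood above all other samples, by a log2 fold change of 3.14 ± 0.51 over control A (adjusted p = 0.000698). *ΔWAPL*/*ΔSCC4*, made by removing SCC4 from *ΔWAPL* cells, was lower than clone 3.3 by -3.07 ± 0.38 (adjusted p = 3.26e-05). In both comparisons LYL1 passed the filter on low counts only through clone 3.3, so the filter favoured a difference and these tests give no support. The change differed between the clones by 5.38 ± 1.03 (adjusted p = 0.0106), which became 4.92 with an adjusted p of 0.0589 without control B replicate 1. Here too only clone 3.3 had more than 9 reads in any sample, so this test gives no support either.

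LMO2, the bridging protein of the TAL1 complex, was too weakly read to test. It had 6, 2 and 3 reads in control A, 7, 5 and 5 in clone 3.3, 1, 1 and 0 in *ΔSCC4* and 7, 13 and 10 in *ΔWAPL*/*ΔSCC4*. In set B it had 7, 10 and 3 reads in control B and 2, 2 and 2 in clone 1.14. In CPM, the *ΔSCC4* and clone 1.14 samples (0 to 0.121 CPM) lay below those of all the other groups (0.123 to 0.799 CPM), though by as little as 0.123 against 0.121 CPM, and no difference was tested at this depth.

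CBFA2T3, a corepressor found in the TAL1 complex, was highest in *ΔSCC4*. It had 17, 7 and 10 reads there (1.11, 0.713 and 0.691 CPM), against 3, 0 and 2 in control A, 6, 4 and 7 in clone 3.3 and 4, 4 and 4 in *ΔWAPL*/*ΔSCC4*, with 0, 1 and 3 in control B and 5, 3 and 5 in clone 1.14. The *ΔSCC4* samples lay above all others. The log2 fold change against control A was 2.93 ± 0.61 (adjusted p = 0.0116), and *ΔWAPL*/*ΔSCC4* was lower than *ΔSCC4* by -1.84 ± 0.43 (adjusted p = 0.00454). In both comparisons CBFA2T3 passed the filter on low counts only through *ΔSCC4*, so the filter favoured a difference and these tests give no support.

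**Figure D3:**
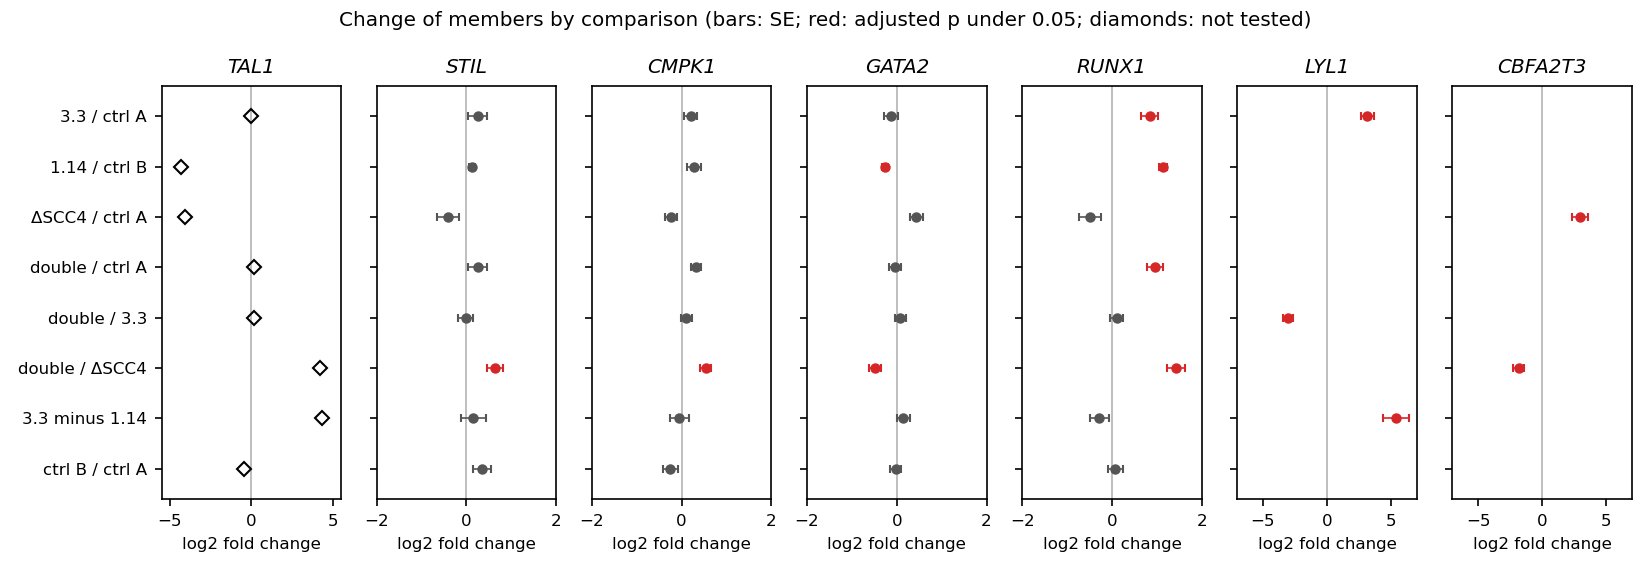
Log2 fold change (horizontal axes, which differ between genes) of TAL1 and the 6 tested genes in 8 comparisons (rows); bars are standard errors, red points have an edgeR adjusted p under 0.05, diamonds mark TAL1 without a test, and a missing point means too few reads to test. RUNX1 is higher in the 3 lines lacking WAPL, from 0.84 to 1.13, whereas TAL1 is low in clone 1.14 and *ΔSCC4*.

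Besides LMO2 and the GATA factors, 22 partners and cofactors of TAL1 were listed. All 22 listed partners and cofactors (E proteins, LDB, LMO and SSBP proteins and chromatin cofactors) were read above 1 CPM in at least 1 sample, with a summed level of 2066 to 2572 CPM per sample. In clone 3.3 edgeR called 1 of 22 higher and 1 lower, with a median log2 fold change of -0.05. In clone 1.14 it called 7 higher and 2 lower (median 0.00). In *ΔSCC4* it called 2 higher and 1 lower of 21 (median 0.17), and with the replicate block 8 higher and 7 lower, and in *ΔWAPL*/*ΔSCC4* 1 higher and 5 lower of 22 (median -0.01), against the shares of all genes given above. LMO4, a close relative of LMO2, rose by 1.26 ± 0.15 in clone 3.3 (adjusted p = 4.19e-05), 1.47 ± 0.09 in clone 1.14 (adjusted p = 4.66e-05) and 0.98 ± 0.14 in *ΔSCC4* (adjusted p = 0.00132), from 12.2 to 14.9 CPM in both controls to 25.8 to 38.3 CPM in these lines. It was also higher in *ΔWAPL*/*ΔSCC4* (18.3 to 20.4 CPM, adjusted p = 0.0422), a call lost in 5 of the 6 fits without a library, with adjusted p up to 0.165. Of the E proteins, TCF4 rose by 0.76 ± 0.13 in clone 1.14 (adjusted p = 0.00754). LMO1 rose by 1.01 ± 0.19 in clone 1.14 (adjusted p = 0.00985), and in *ΔWAPL*/*ΔSCC4* it fell by 1.41 ± 0.33 (adjusted p = 0.0249), which was lost without replicate 1 or replicate 3 of that group (adjusted p 0.0696 to 0.127). RUNX1T1, a relative of CBFA2T3, rose by 0.78 ± 0.08 in clone 1.14 (adjusted p = 0.000448), and SSBP2 fell by 0.98 ± 0.12 in *ΔWAPL*/*ΔSCC4* (adjusted p = 0.000395). LMO3 was also lower there, by -0.91, and CBFB, the partner of RUNX1, was higher in clone 1.14 by 0.27. That CBFB call was lost in the single edgeR fit over all 18 samples (adjusted p = 0.445). The other partner calls were lost when single libraries were left out. They were EP300 in clone 3.3 (lost in 3 of 6 fits, adjusted p up to 0.0756), LMO3, TCF12, RCOR1 and SSBP3 in clone 1.14 (2 to 4 of 6, up to 0.106), ZFPM1 and SSBP2 in *ΔSCC4* (2 of 6 each, up to 0.0638) and LDB2 and SSBP3 in *ΔWAPL*/*ΔSCC4* (4 of 6 each, up to 0.196).

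Other transcription factors of blood cells changed in both directions. Of 24 listed, 15 were tested against control; 3 were higher and 2 lower in clone 3.3 (median 0.02), 1 higher and 5 lower in clone 1.14 (median -0.20), 4 higher and 1 lower in *ΔSCC4* (median 0.29; 8 higher and 3 lower with the replicate block) and 3 higher and none lower in *ΔWAPL*/*ΔSCC4* (median 0.13). In the same order edgeR called 8.07%, 20.1%, 9.49% (46.0% with the block) and 7.95% of all genes. FLI1, an ETS factor of megakaryocytes and blood progenitors, was at 0.536 to 0.781 CPM in control A, rose to 3.25 to 3.97 CPM in *ΔSCC4* (log2 fold change 2.46 ± 0.24, adjusted p = 0.000108) and to 2.77 to 3.70 CPM in *ΔWAPL*/*ΔSCC4* (2.34 ± 0.24, adjusted p = 0.000134). In clone 1.14 it fell, from 22, 23 and 26 reads in control B to 4, 2 and 1. The log2 fold change was -3.42 ± 0.33 (adjusted p = 0.000455). FLI1 passed the filter there only through control B, so the filter favoured a difference and the test gives no support. In clone 3.3 it had 17, 7 and 11 reads against 12, 10 and 9 in control A. HLF and BCL11B, factors of stem cells and of T cells, were lower in both *ΔWAPL* clones, HLF by -1.32 and -1.15 and BCL11B by -1.29 and -1.01 in clones 3.3 and 1.14. MECOM, a stem-cell factor, rose by 1.52 ± 0.18 in *ΔSCC4* (adjusted p = 0.000321) and 0.90 ± 0.14 in clone 1.14 (adjusted p = 0.00488), and by 0.72 in clone 3.3 with a call lost without control A replicate 2, clone 3.3 replicate 1 or clone 3.3 replicate 2 (adjusted p up to 0.103). EBF1, a B-cell factor, rose by 1.96 ± 0.24 in *ΔSCC4* (adjusted p = 0.000495). IKZF1, the lymphoid factor Ikaros, had 5, 6 and 1 reads in control A, 32, 23 and 16 in clone 3.3, 16, 18 and 17 in *ΔSCC4* and 18, 13 and 18 in *ΔWAPL*/*ΔSCC4*. It was called higher in all 3 (the last lost in 3 of 6 fits without a library, adjusted p up to 0.108). However, it passed the filter only through these groups, so the filter favoured a difference and the calls give no support. GATA3, the T-cell GATA factor, rose from 3.58 to 4.82 CPM in control A to 8.37 to 9.19 CPM in clone 3.3 (log2 fold change 1.03 ± 0.18, adjusted p = 0.00139), and was lower in clone 1.14 by -0.42, a call lost in 4 of 6 such fits (up to 0.104). Unedited control B stood at 7.245 to 7.708 CPM, and DESeq2 called GATA3 higher there than in control A (adjusted p = 0.0266). GFI1, a repressor of myeloid and stem cells, fell by 0.90 in clone 1.14 and rose by 1.04 in *ΔWAPL*/*ΔSCC4*. The controls differed by a similar amount, with means of 2.81 CPM in control A and 5.25 CPM in control B. Clone 1.14 had 2.81 CPM and *ΔWAPL*/*ΔSCC4* 5.80 CPM. MYB, a progenitor factor, was lower in *ΔSCC4* by -0.66, a call lost in 4 of 6 such fits (up to 0.156). Between the controls edgeR called 2 of 15, against 0.640% of all genes, and DESeq2 called GATA3 as well. The 2 were GFI1 and RUNX2, higher in set B by 0.88 (adjusted p = 0.04) and 1.82 (adjusted p = 0.0472). Both edgeR calls were lost in 6 of 6 fits without a library (adjusted p up to 0.2 and 0.273).

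Genes of red cells and megakaryocytes, many of them targets of the TAL1 complex, were mostly unread: 11 of 27 had no read in any sample, 19 stayed under 1 CPM, and 8 were tested. HBB, which encodes beta-globin, had no read in the 6 control samples, 34, 27 and 18 reads in clone 3.3, 62, 68 and 57 in clone 1.14, 127, 82 and 85 in *ΔSCC4* and 126, 99 and 81 in *ΔWAPL*/*ΔSCC4*. Against a floor of 3 reads over the control group this was at least 26.3-fold higher in clone 3.3, 56.1-fold in clone 1.14, 123-fold in *ΔSCC4* and 97.6-fold in *ΔWAPL*/*ΔSCC4*. All lines with HBB reads, and no control, had been edited with a resistance cassette, so the cassette, the editing and the genotypes cannot be told apart here. HBG1, a fetal globin gene, had no read in any sample, and HBA1 had 2 to 22 reads per sample. ITGA2B, the megakaryocyte integrin, fell from 6.79 to 7.52 CPM in control A to 1.84 to 2.86 CPM in clone 3.3 (log2 fold change -1.58 ± 0.21, adjusted p = 0.000103) and from 8.82 to 9.17 CPM in control B to 4.95 to 5.46 CPM in clone 1.14 (-0.80 ± 0.08, adjusted p = 0.000719). KIT, the stem cell factor receptor, fell by 1.21 ± 0.19 in *ΔWAPL*/*ΔSCC4* (adjusted p = 0.00248). Over the 8 tested genes 1 was higher and 1 lower in clone 3.3 (median -0.17), 1 higher and 3 lower in clone 1.14 (median -0.24), 1 higher and none lower in *ΔSCC4* (median -0.42; 3 lower with the replicate block) and 1 higher and 2 lower in *ΔWAPL*/*ΔSCC4* (median -0.21), beside 8.07%, 20.1%, 9.49% (46.0% with the block) and 7.95% of all genes called. The gene called higher was HBB each time, which passed the filter only through the edited groups. The calls of ANK1 and EPOR in clone 1.14 were lost in 3 and 5 of 6 fits without a library (adjusted p up to 0.106 and 0.0947), and that of ITGA2B in *ΔWAPL*/*ΔSCC4* in 2 of 6 (up to 0.0537). The medians are the same with HBB at its floor. Of 7 endothelial markers in the files 2 were tested. FLT1 was called lower in clone 3.3 (-1.14) and clone 1.14 (-1.11), where 8.07% and 20.1% of all genes were called. The other, ESAM, stood at 0.39 and -0.23 and was called in neither clone.

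The genes whose levels followed TAL1 most closely lay elsewhere in the genome. Among the 11656 genes that passed the filter and averaged 1 or more in log2 CPM, the 5 with the highest Pearson r with TAL1 over the log2 CPM of the 18 samples were S100A6 (r = 0.996), SLC17A9 (0.994), GABRA5 (0.966), MARVELD3 (0.962) and MGMT (0.959), and 23 genes had an r of at least 0.9. The 18 points fall into 6 groups whose samples share their source, so r describes a pattern and has no p. S100A6, a calcium-binding protein gene 105.8 Mb from TAL1 on the same chromosome, was at 21.2 to 36.0 CPM in the 4 groups where TAL1 was high, with 1, 2 and 0 reads in *ΔSCC4* and none in clone 1.14. SLC17A9, a nucleotide transporter gene on chromosome 20, had 2, 2 and 1 reads in *ΔSCC4* and 1, 1 and 0 in clone 1.14, against 14.4 to 32.8 CPM elsewhere. GABRA5, a neuronal receptor subunit on chromosome 15, had 1 read in *ΔSCC4* in all and 4, 3 and 5 in clone 1.14, against 11.9 to 18.9 CPM elsewhere. In MARVELD3 and MGMT the same groups were low, at 0.297 to 0.845 CPM and 0.422 to 1.38 CPM. The other genes of the locus and the related factors were less alike: r was 0.762 for LMO2 and 0.527 for LYL1, both with few reads, 0.311 for CMPK1, 0.116 for STIL, 0.034 for RUNX1, -0.182 for GATA2 and -0.503 for CBFA2T3.

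**Figure D4:**
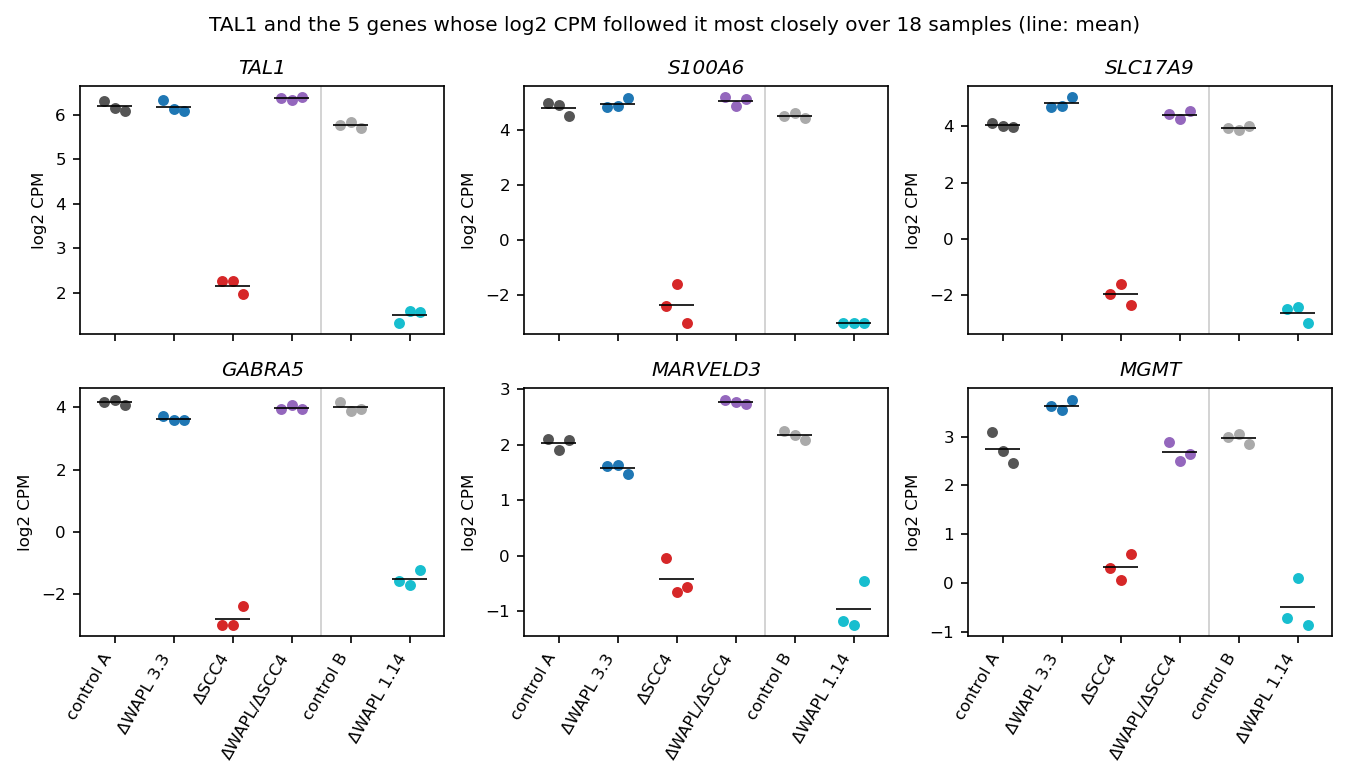
Log2 CPM (prior count 2, vertical axes that differ between genes) of TAL1 and the 5 genes most like it in each of the 18 samples; points are samples, lines are means of 3. All 6 genes are lowest in *ΔSCC4* and *ΔWAPL* clone 1.14, and S100A6 has no read in clone 1.14.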

How the data were processed

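Polyadenylated RNA of 18 HAP1 samples was sequenced with a strand-specific kit. The authors aligned reads to hg19 with TopHat2 (2.0.9 per the labels) and deposited raw read counts per gene from HTSeq, 1 table per sample; the annotation release is not given in the sources used here. Rows that name no gene (20.3% to 22.6% of reads) were left out. The members and gene lists were chosen with earlier results of these data known.

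Counts were tested in R (4.3.3) with edgeR's quasi-likelihood test (4.0.16), filterByExpr and TMM factors, on the groups of each comparison alone, after a check on simulated data. P-values were adjusted over all genes tested (Benjamini-Hochberg), with 0.05 as the threshold, and each standard error follows from the fold change and its F value. CPM use TMM factors over all samples. Floors use 3 reads and cover counting error only. No replicates held identical values. Alternatives were DESeq2 (1.42.0), its size factors in edgeR, other count filters (none, or 10 reads in each sample), 1 fit over all samples, a replicate block and leaving out each library. Same-numbered *ΔSCC4* and control A samples deviated together from their group means (correlations 0.675, 0.115 and 0.615). Blocked values therefore stand beside those results where they change a call. The mean of -0.234 for different numbers is no separate check, since deviations from a group mean cancel. Same-numbered clone 3.3 and control A samples gave -0.515, -0.001 and -0.487. The pairing is read from the data and is not established, since the labels give only numbers.

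The text names the 10 members, tested genes within 1 Mb of TAL1, called genes of the lists, WAPL and MAU2, and the 5 genes most like TAL1 in log2 CPM (prior count 2). CYP4X1, HBA1, HBG1, the endothelial genes FLT1 and ESAM and the marker genes were picked after their values were seen. Promoter windows are RefSeq's, matched to GRCh37, and gene positions are from GENCODE lifted to GRCh37.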

Additional observations from a re-analysis of the deposited data

Results flagged for a closer look

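The change in *ΔWAPL* clone 3.3 and that in clone 1.14, each against its own control, differed by edgeR's test of the difference in 5 genes of the lists. These were 1 of 5 tested members other than TAL1, 3 of 16 other blood transcription factors and 1 of 6 mesenchymal or epithelial markers. Of 22 partners and cofactors, 8 red-cell and megakaryocyte genes and 16 genes within 1 Mb of TAL1, 0 were called. Over all genes 2.65% were called. The difference, clone 3.3 minus clone 1.14 on the log2 scale, was 5.38 for LYL1 (adjusted p = 0.0106), 3.56 for FLI1 (adjusted p = 0.000706), 1.47 for GATA3 (adjusted p = 0.00037), 1.32 for GFI1 (adjusted p = 0.00141) and 1.02 for KRT8, a keratin (adjusted p = 0.0138). In the comparisons of single clones LYL1 passed the filter only through clone 3.3 and FLI1 in set B only through control B. LYL1 rested on few reads, with more than 9 in a sample only in clone 3.3, so its call here gives no support either. Its adjusted p was 0.0589 without control B replicate 1. The adjusted p of KRT8 was 0.0647 with the replicate block. The clones also belong to different sets with different controls, so clone and set cannot be told apart.

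Loss of SCC4 went with opposite changes in unedited cells (*ΔSCC4* against control A) and in *ΔWAPL* cells (*ΔWAPL*/*ΔSCC4* against clone 3.3) in 8 genes of the lists. Their groups did not overlap on either side, and the difference itself was not tested. The share of all genes with this pattern was not counted, so the 8 are a description. Over all genes edgeR called 9.49% in the first comparison and 10.6% in the second. In log2 fold changes, LMO4 had 0.98 and -0.78, LDB2 0.45 and -0.59, IKZF1 2.34 and -0.59, MECOM 1.52 and -0.82 and CDH2, a cadherin, 0.60 and -0.54. The other direction was seen in ANK1, a red-cell membrane gene, with -0.55 and 0.37, ITGA2B with -0.54 and 0.82, and KRT8 with -1.61 and 3.70. Not every single change passed the test: LDB2, ANK1 and ITGA2B were not called in *ΔSCC4* (with the replicate block LDB2 had 0.45 with an adjusted p of 0.000118 and ITGA2B -0.54 with 0.0065), and IKZF1 and ANK1 were not called in *ΔWAPL*/*ΔSCC4* against clone 3.3. IKZF1 passed the filter in *ΔSCC4* against control A only through *ΔSCC4*, so its call there gives no support. The call of CDH2 in *ΔSCC4* was lost without control A replicate 2, *ΔSCC4* replicate 2 or *ΔSCC4* replicate 3 (adjusted p up to 0.0958). The calls against clone 3.3 were lost without *ΔWAPL*/*ΔSCC4* replicate 3 for ITGA2B (adjusted p = 0.056) and without its replicate 1 for CDH2 (adjusted p = 0.0626).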

How the results depend on the processing

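The log2 fold change of TAL1 moved by less than the spread between replicates in 102 of 102 alternative values. Of 469 results for the other members, 451 kept their side of the threshold, 9 gained a call, 9 lost one and none reversed. Leaving out 1 library moved the number of genes called from 1008 to between 686 and 1180 for clone 3.3 against control A, 2536 to 1415 to 4820 for clone 1.14, 1186 to 662 to 2317 for *ΔSCC4*, 1001 to 586 to 1552 for *ΔWAPL*/*ΔSCC4* against control A, 1330 to 861 to 1805 against clone 3.3, 3447 to 2080 to 5020 against *ΔSCC4*, 339 to 218 to 372 for the clones' difference and 80 to 0 to 107 between controls. The 0 came without control A replicate 2, with 857 genes at an unadjusted p under 0.05. Members called then ranged from 1 to 3 in clone 1.14 and in *ΔSCC4*, 4 to 5 in *ΔWAPL*/*ΔSCC4* against *ΔSCC4* and 0 to 1 for the clones' difference. One fit over all 18 samples called 1753 genes in clone 3.3, 2556 in *ΔSCC4* and 408 between controls, with 1 member in clone 1.14 and 2 in *ΔSCC4*. DESeq2 called 1 member in clone 1.14 and, between controls, 168 genes; no filter gave 127 there. Requiring at least 10 counts in every sample left 211 genes for the clones' difference and members at 1 in clone 3.3 and 0 in *ΔSCC4*, *ΔWAPL*/*ΔSCC4* against clone 3.3 and the clones' difference, since LYL1 and CBFA2T3 then dropped out.

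With the replicate block, 5754 genes and 5 members were called in *ΔSCC4*, 173 genes for the clones' difference and 162 between controls. Only *ΔSCC4* and control A had every same-numbered pair correlated over 0.1. By the labels, replicates share only a number, there as elsewhere. Depth limits LYL1, LMO2, CBFA2T3, GATA1 and PDZK1IP1, which had at most 29 reads in a sample. Each edited group is 1 line, and sets A and B have controls of their own.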
